A study of Rattus norvegicus with 6 samples.

Results

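The synaptotagmins measured here are the 8 genes Syt1, Syt2, Syt3, Syt4, Syt5, Syt6, Syt7 and Syt11, out of 4736 named genes, read by 9 of the 8740 probe sets of an Affymetrix rat genome array. Each gene has 1 probe set except Syt4, which has 2, both designed from the same sequence record, so they are repeat readings of 1 transcript and not independent evidence. Members were chosen by gene symbol, every probe set of the 8 genes being kept, but the family itself was put forward with the LSD and saline values of these same arrays already known, Syt1 and Syt4 among them. Differences between the treatments are therefore given as a description of the family and are not tests of it. The array carries 13 synaptotagmin genes in all, and the other 5 are set beside the members further on.

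The treated animals were male Sprague-Dawley rats given lysergic acid diethylamide (LSD), a psychedelic serotonin receptor agonist, as a single intraperitoneal dose of 1 mg/kg of LSD tartrate, and the comparison animals received saline by the same route. The medial prefrontal cortex (mPFC) was taken 90 min later, no allele or other agent differed between the groups, and 3 LSD and 3 saline arrays were hybridised. Per the labels the tissue of 4 rats was pooled for each treatment before RNA extraction, while the study describes each array as its own pool of rats, so the spread between arrays of a group may be technical only. In the sample descriptions the second line names the opposite treatment from the title and the treatment label. Groups here follow the titles. Were the descriptions right instead, each difference below would change its sign.

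Synaptotagmins are membrane proteins of synaptic and secretory vesicles. Most have a single membrane-spanning segment and a pair of C2 domains facing the cytoplasm, and in many members these domains bind calcium and then phospholipids and SNARE proteins, which couples calcium entry to membrane fusion. The members differ in calcium affinity and speed, and some lack residues needed for calcium binding, so that the family covers fast transmitter release, slower release, dense-core vesicle secretion and membrane retrieval.

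The LSD and saline arrays did not overlap for 2 of the 8 genes, Syt1 and Syt4, with LSD higher in all 3 of their probe sets. The other 6 genes overlapped between the treatments. In dissected tissue, more transcript per cell and more cells of a type cannot be told apart. Of the 9 probe sets, 7 had a log2 difference (LSD minus saline) above 0, against 51.4% of all 8740, and the median difference was 0.07 against 0.0045 over all. None of the 9 passed an adjusted p of 0.05 in limma, where 0.0686% of all probe sets did, 0.0114% with LSD higher and 0.0572% with LSD lower. An unadjusted limma p below 0.05 was found for 3 of the 9, all with LSD higher, beside 3.92% of all probe sets in either direction and 2.4% with LSD higher. Over all probe sets, 6.58% had every LSD array above every saline array and 3.79% had the opposite. These shares include the contrast with which the family was put forward, and nothing is read from them.

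**Figure D1:**
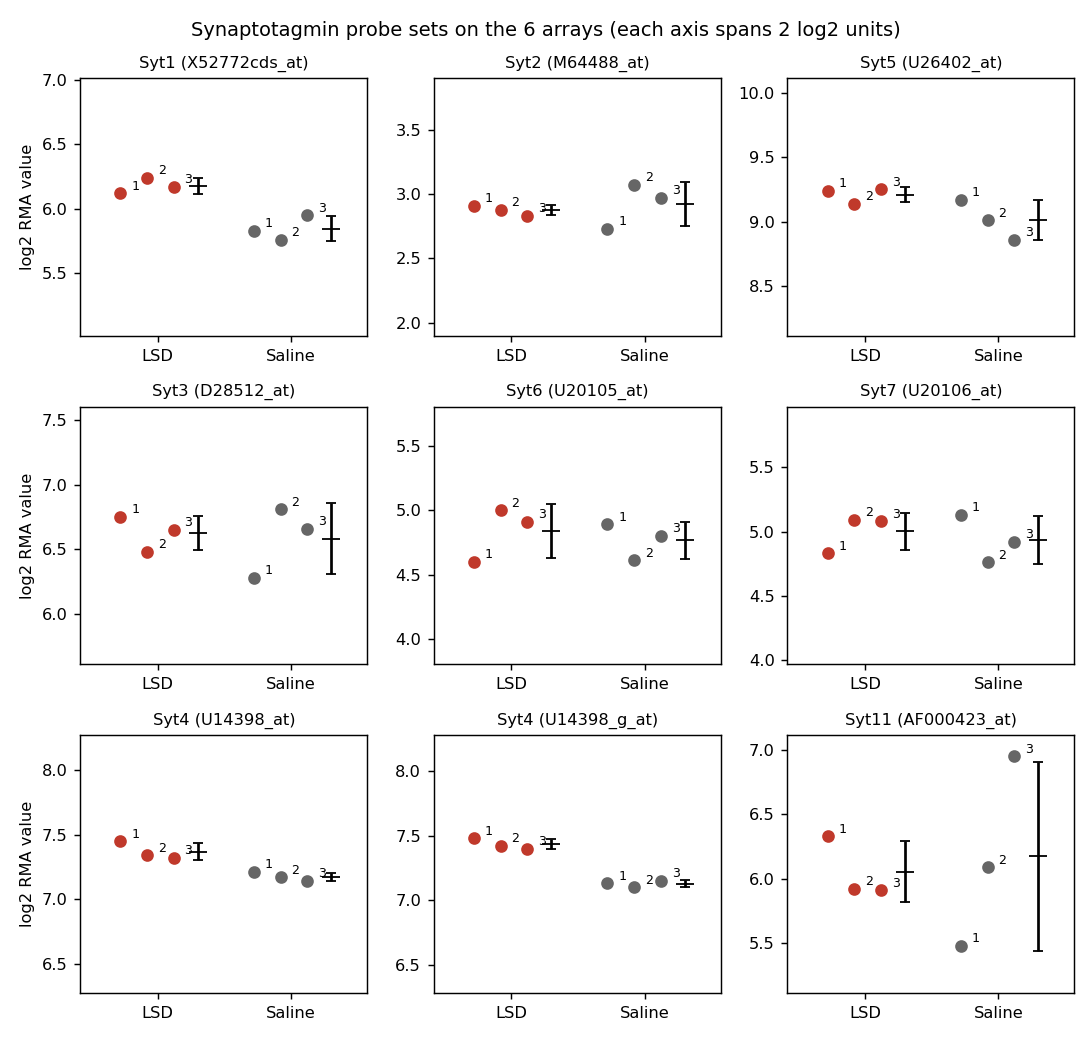
Log2 RMA value (vertical axis) of each synaptotagmin probe set on the LSD arrays (red) and the saline arrays (grey), numbered by replicate, with the mean and SD of each group in black (n = 3). Every vertical axis spans the same range, and only Syt1 and the 2 Syt4 probe sets have all LSD arrays above all saline arrays, while Syt11 is the most scattered.

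The stretches before the annotated starts of Syt1 and Syt4 are shown because these are the members whose groups did not overlap. RefSeq windows of the GRCr8 rat assembly were found for 6 of the 8 members, and only the 250 bases before the start are used. In the lines that follow, 5′ to 3′ on the gene's strand, capitals mark motif matches found by letter search on both strands. In Syt1 they are GCGGGGGCG, a match to the EGR letters GCGNGGGCG, and the E-box CAGCTG. In Syt4 they are CAGGTG, which is the E-box CACCTG on the other strand, and CGTCA, which is the half-site TGACG of the cyclic AMP response element on the other strand. The Syt1 stretch lies at chr7:46244214-46244463 and the Syt4 stretch at chr18:23320864-23321113, both on the minus strand.
Syt1: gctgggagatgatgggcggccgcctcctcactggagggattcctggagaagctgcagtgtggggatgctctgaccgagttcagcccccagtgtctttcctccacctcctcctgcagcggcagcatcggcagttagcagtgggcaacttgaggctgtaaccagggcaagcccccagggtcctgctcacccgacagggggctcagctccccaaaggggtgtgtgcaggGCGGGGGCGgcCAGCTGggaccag
Syt4: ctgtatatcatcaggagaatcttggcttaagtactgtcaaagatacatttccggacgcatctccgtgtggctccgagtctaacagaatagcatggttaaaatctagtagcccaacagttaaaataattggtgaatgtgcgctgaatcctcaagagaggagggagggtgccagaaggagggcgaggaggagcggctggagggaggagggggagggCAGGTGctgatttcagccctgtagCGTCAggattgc

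In Syt1 the EGR match spans the bases 24 to 16 before the start and the E-box the bases 13 to 8, and the EGR match overlaps GC boxes (GGGCGG). GC boxes were searched as well but have no capitals of their own. In Syt4 the E-box match lies at bases 36 to 31 and the half-site at bases 12 to 8. Such letters are common. Of 33469 windows, several of them belonging to the same gene, 4.29% held GCGNGGGCG, 12.0% CAGCTG, 15.9% CACCTG and 18.2% TGACG. The complete cyclic AMP response element TGACGTCA, found in 1.59% of windows, was in none of the 6 member windows. CAGCTG was also found before Syt2 and Syt6, and CACCTG before Syt2 and Syt3, whose groups overlapped. A further E-box, CACGTG (5.59% of windows), was found before Syt6 alone. GGGCGG, in 30.5% of windows, was found before Syt1, Syt3, Syt6 and Syt11. None of the letter strings searched was found before both Syt1 and Syt4, although each has an E-box, CAGCTG in Syt1 and CACCTG in Syt4. A match describes the sequence and is no evidence that a factor binds there.

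Syt1 is the calcium sensor of fast, synchronous transmitter release in most forebrain neurons. Its probe set X52772cds_at read 6.12, 6.24 and 6.17 log2 units on the LSD arrays, and 5.83, 5.76 and 5.95 on the saline arrays. The lowest LSD array stood 0.17 above the highest saline array. The means were 6.18 ± 0.0633 with LSD and 5.84 ± 0.0994 with saline (SD, n = 3 each), a log2 difference of 0.33 ± 0.0890 (SE) or 1.26-fold. Over all probe sets, 97.4% had a smaller difference in size. Leaving out any 1 array kept the difference between 0.29 and 0.39.

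Syt2 is the fast sensor of the hindbrain and spinal cord and, in the cortex, of parvalbumin interneurons. M64488_at was dim, with 3.7% of probe sets dimmer, and read 2.91, 2.88 and 2.83 on the LSD arrays and 2.73, 3.07 and 2.97 on the saline arrays. The LSD arrays lay inside the saline range. The difference was -0.04 ± 0.10 log2 units (SE), with a 95% interval of 0.822-fold to 1.14-fold, and RMA compresses folds at such low signal. Pvalb, the parvalbumin gene, differed by 0.19 ± 0.097 (SE) with overlapping groups. That was the highest difference among 13 probe sets of 6 parvalbumin interneuron genes, which ran from -0.87 to 0.19 (median 0.03). Of the 13, 7 were above 0 and 6 below, where 51.4% of all probe sets were above. The 13 averaged 5.06 to 5.10 over the LSD arrays and 5.06 to 5.21 over the saline arrays.

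Syt5, a vesicle protein found in brain, carries the synonym SytIX in RefSeq, while Syt9 carries Sytv, so older texts may use either number for the other gene. U26402_at read 9.24, 9.14 and 9.25 on the LSD arrays and 9.17, 9.01 and 8.86 on the saline arrays. Saline 1 fell between LSD 2 and LSD 1, which is the whole overlap. The difference was 0.20 ± 0.10 log2 units (SE), 0.27 without Saline 1 and 0.12 without Saline 3, and the 95% interval ran from 0.976-fold to 1.35-fold.

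Syt7 binds calcium with high affinity and slow kinetics and serves asynchronous release, facilitation and vesicle replenishment. U20106_at read 4.83, 5.09 and 5.08 on the LSD arrays, and 5.13, 4.76 and 4.92 on the saline arrays. Saline 1 was the highest of the 6 arrays, and LSD 1 lay below both Saline 1 and Saline 3. The difference was 0.07 ± 0.12 log2 units (SE, 95% interval 0.862-fold to 1.27-fold).

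Syt3 and Syt6 belong to a branch whose members form disulfide-linked dimers. Syt3 has been placed on postsynaptic membranes of rodent neurons, where it takes part in the retrieval of AMPA receptors, and Syt6 is known from the acrosome reaction of sperm as well as from brain. D28512_at of Syt3 read 6.75, 6.48 and 6.65 on the LSD arrays, and 6.28, 6.81 and 6.66 on the saline arrays. Its difference was 0.04 ± 0.15 log2 units (SE), and became -0.11 without Saline 1 and 0.16 without Saline 2. U20105_at of Syt6 read 4.60, 5.00 and 4.91 on the LSD arrays, and 4.89, 4.61 and 4.80 on the saline arrays. Its difference was 0.07 ± 0.13 log2 units (SE), at 0.19 without LSD 1 and -0.01 without LSD 2. For both genes the arrays of the 2 treatments were interleaved.

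Syt4 sits on dense-core vesicles, where in rodent neurons it regulates the release of the neurotrophin BDNF, and it was described as an immediate early gene induced by depolarisation in a rat neuroendocrine cell line. The first C2 domain of Syt4 and of Syt11 has a serine where calcium-binding members have an aspartate. U14398_g_at read 7.48, 7.42 and 7.40 on the LSD arrays, and 7.13, 7.10 and 7.15 on the saline arrays. The gap between the groups was 0.25 log2 units. The means were 7.43 ± 0.0394 with LSD and 7.13 ± 0.0250 with saline (SD, n = 3 each), a difference of 0.30 ± 0.0773 (SE) or 1.23-fold. U14398_at read 7.45, 7.34 and 7.32 with LSD, and 7.21, 7.17 and 7.14 with saline. Its groups were 0.12 apart, and the difference was 0.20 ± 0.0808 (SE) or 1.15-fold. LSD 1 was the highest array in both probe sets. Over the 6 arrays they correlated at r = 0.95, and at 0.64 after removal of the group means. These values are given as a description of probe sets with a shared source. Without LSD 1 the differences were 0.28 and 0.16, the lowest over the arrays left out. Both were steady within a group, with 1.13% and 5.77% of all probe sets less variable.

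Syt11, the closest relative of Syt4, does not act as a calcium sensor and restrains endocytosis in neurons. AF000423_at read 6.33, 5.92 and 5.91 on the LSD arrays, and 5.48, 6.09 and 6.95 on the saline arrays. All LSD arrays lay within the saline range, which spanned the extremes of Saline 1 and Saline 3. The within-group SD of 0.546 log2 units exceeded that of 99.0% of probe sets. The difference was -0.12 ± 0.32 (SE), became -0.46 without Saline 1 and 0.27 without Saline 3, and had a 95% interval from 0.550-fold to 1.54-fold. With arrays weighted by their quality it was -0.63. Of the 9 probe sets, U14398_g_at of Syt4 thus had the narrowest within-group spread and Syt11, its relative, the widest.

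**Figure D2:**
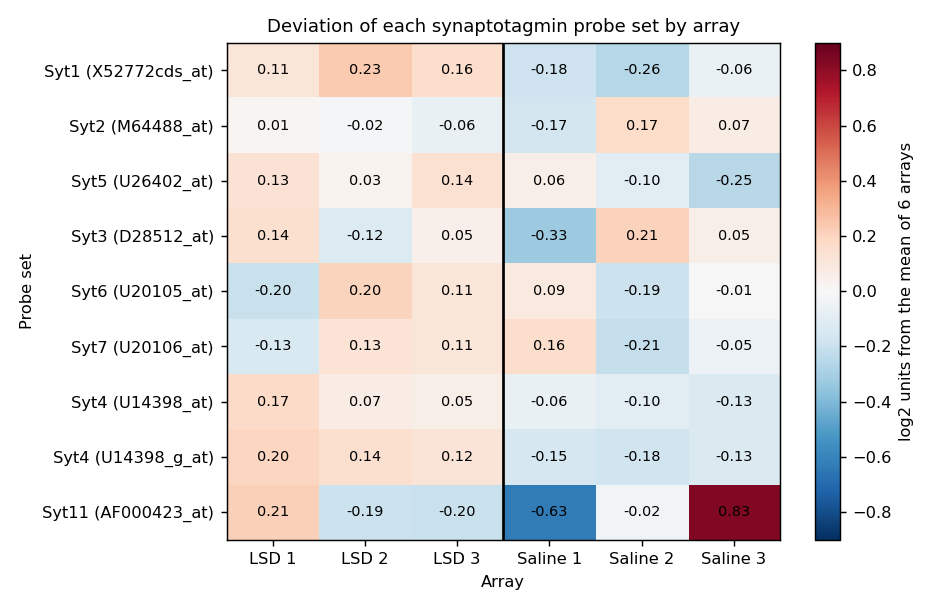
Deviation of each synaptotagmin probe set (rows) from its own mean over the 6 arrays, in log2 units, for the LSD arrays and then the saline arrays (columns), red above and blue below the mean. Syt1 and both Syt4 probe sets are positive on all LSD arrays and negative on all saline arrays, and Saline 1 is the lowest array for Syt2, Syt3 and Syt11 and the highest for Syt7.

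Members did not move as 1 block from array to array. Over the 6 arrays Syt6 and Syt7 varied together (r = 0.93), as did Syt2 and Syt3 (r = 0.85), whereas Syt7 ran against Syt2 (r = -0.88) and Syt3 (r = -0.85). These values were much the same once the group means were removed, at 0.93, 0.90, -0.87 and -0.92. Syt1 and U14398_g_at of Syt4 correlated at 0.92 over the arrays and at 0.18 after removal of the group means. For Syt1 and U14398_at, the other Syt4 probe set, the values were 0.76 and -0.57. The points share arrays and 1 normalization, and 6 arrays are few, so these are descriptions. The array Saline 1 stood apart over the whole table, where 78 of 8740 probe sets departed by over 1 log2 unit from what the remaining arrays averaged, against 2 to 21 on any of these. Without Saline 1 the differences were 0.32 for Syt1, and 0.30 and 0.22 for U14398_g_at and U14398_at of Syt4.

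The other 5 synaptotagmin genes of the array were Syt8, Syt9, Syt10, Syt12 and Syt17. Their differences ran from -0.13 (Syt17) to 0.07 (Syt9), and 4 of the 5 were below 0, with Syt10 and Syt12 at -0.02 each. The groups overlapped in all 5, as in 6 of the 8 members. Syt9, Syt10 and Syt12 had low signal, with 17.9%, 30.6% and 33.9% of probe sets dimmer. Syt17, a member that lacks a membrane-spanning segment, read 7.88, 7.81 and 7.78 on the LSD arrays and 7.88, 7.96 and 8.02 on the saline arrays. The interval of the Syt17 difference reached from 0.801-fold to 1.04-fold. Whether the 2 sets of genes differ from each other was not tested, since the division between them was made with the values known.

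**Figure D3:**
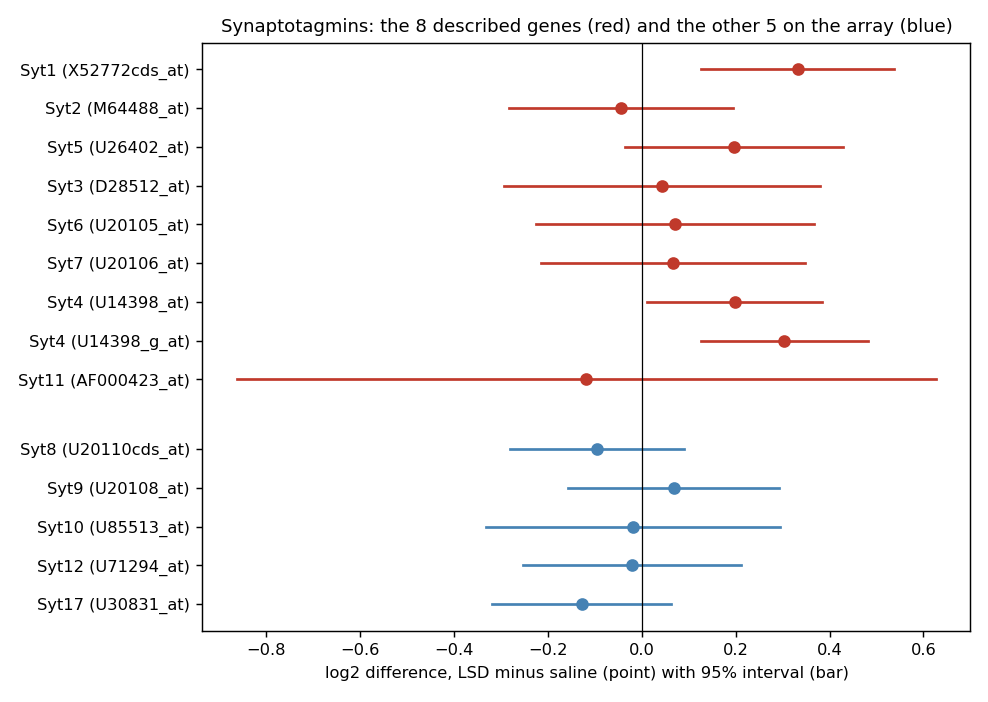
Log2 difference, LSD minus saline (horizontal axis), of the 9 probe sets of the 8 synaptotagmins (red) and of the other 5 synaptotagmin genes on the array (blue), with points for the limma estimate and bars for the 95% interval, which is not adjusted for the 8740 probe sets (n = 3 arrays per group). The estimates run from -0.13 for Syt17 to 0.33 for Syt1, and Syt11, at -0.12, has the widest bar.

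The probe sets most like Syt1 and Syt4 over the 6 arrays were found by Pearson correlation. For Syt1 they belonged to Aldoa, a glycolytic aldolase (r = 0.987), Abcd3, a peroxisomal transporter (0.987), and Guca2a, the guanylin precursor (0.985). For Syt4 (U14398_g_at) they belonged to Gria3, the AMPA receptor subunit GluA3 (r = 0.996), Mycbp2, a neuronal ubiquitin ligase (0.989), and Hpca, the neuronal calcium sensor hippocalcin (0.988). Among 6997 probe sets of other genes, 16 reached an r above 0.95 with Syt1 and 25 with Syt4. The Gria3 probe set X54656_at was 1.06 log2 units higher with LSD, the Hpca and Abcd3 probe sets 0.15 and 0.19. Since the treatment difference is part of these correlations, any probe set with separated groups and little scatter ranks high.

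Synaptotagmins act together with SNARE proteins, their regulators and the active zone. A list of 68 such genes had 49 on the array with 73 probe sets, of which 45 had a difference above 0 and 28 below, where 51.4% of all probe sets were above. The median was 0.03, and 0 of 73 passed over all probe sets in limma, beside 0.0686% of all, while 5 had an unadjusted p below 0.05, beside 3.92% of all. The groups did not overlap in 15 of the 73 with LSD higher, beside 6.58% of all probe sets, and in 1 with LSD lower, beside 3.79%. The list was chosen with earlier results of these data known, and some of its genes have several probe sets. Nothing is therefore read from these shares or from those of its parts. SNARE proteins, which form the fusion complex, had 10 of 16 probe sets above 0 (median 0.08, range -0.30 to 0.16). SNARE regulators such as complexins and Munc18 proteins had 8 of 13 (median 0.03), and Rab3 and active zone genes 7 of 12 (median 0.01). Other vesicle proteins had 9 of 15 (median 0.01, range -0.11 to 0.43), and presynaptic calcium channels and neurexins 5 of 10 (median -0.01). The AP-2 adaptor, a clathrin adaptor that binds synaptotagmins during vesicle retrieval, had 6 of 7 above 0 (median 0.16; 51.4% of all probe sets were above). The 7 read 4 genes, and in 4 of the 7 LSD was higher without overlap, beside 6.58% of all. Ap2b1 had probe sets of both signs, at -0.08, 0.09 and 0.22. LSD was also higher without overlap in 3 of 16 SNARE, 2 of 13 SNARE regulator and 2 of 12 Rab3 and active zone probe sets. For other vesicle proteins it was 3 of 15, and for presynaptic calcium channels and neurexins 1 of 10. None of these groups had a member past the threshold.

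**Figure D4:**
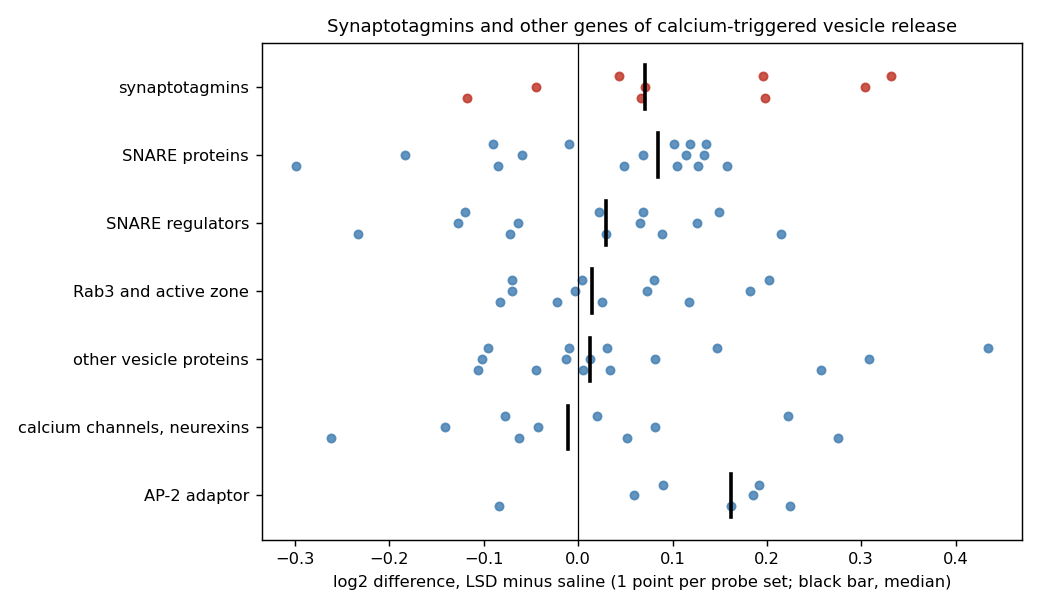
Log2 difference, LSD minus saline (horizontal axis), of the synaptotagmin probe sets (red) and of the 73 probe sets of release partners by function (blue), 1 point per probe set, with a black bar at the median of each row. The medians lie between -0.01 and 0.16, and the point furthest to the right is a probe set of Sv2b at 0.43.

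The 3 largest positive differences among the partners were in Sv2b, Syn2 and Nrxn2. Sv2b encodes a vesicle glycoprotein of the SV2 family, which binds synaptotagmin. Its probe set L10362_at read 7.55, 7.48 and 7.56 on the LSD arrays, and 7.03, 7.14 and 7.11 on the saline arrays. The groups stood 0.34 apart, and the difference was 0.43 ± 0.080 log2 units (SE), which did not pass. With array weights it passed in limma, at 0.39 log2 units and an adjusted limma p of 0.040. With these weights 42 of all 8740 probe sets passed, against 6 without them. The weights were estimated from the same arrays and ran from 0.289 (Saline 1) to 3.09 (LSD 2). The other Sv2b probe set, rc_AI639484_at, went the opposite way, at 9.53, 9.44 and 9.45 with LSD and 9.62, 9.54 and 9.58 with saline, a difference of -0.10 ± 0.079 (SE). Its groups were only 0.0040 apart. The 2 probe sets therefore give no single direction for Sv2b.

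Syn2, a synapsin that tethers vesicles to the cytoskeleton, read 6.65, 6.55 and 6.40 in rc_AI145494_at on the LSD arrays, and 6.07, 6.23 and 6.38 on the saline arrays. The difference was 0.31 ± 0.11 log2 units (SE), and groups met within 0.024. Its sister probe set of the same record differed by 0.26 ± 0.10 and a further one, M27925_at, by -0.10 ± 0.083. For Nrxn2, a presynaptic adhesion protein, rc_AI070512_s_at differed by 0.28 ± 0.13 with overlap, and M96376_at by -0.08 ± 0.084. Each of these genes thus had a probe set of the opposite sign, so a single probe set does not settle the direction of a gene on this array. Syt1 has only 1, and the 2 of Syt4 come from 1 record.

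The largest negative differences were those of Snap29, a widely expressed SNARE (-0.30 ± 0.23), Cacna1a, the pore subunit of the P/Q-type calcium channel that feeds release (-0.26 ± 0.14), and Stxbp2, a Munc18 protein better known outside neurons (-0.23 ± 0.14; all log2 units ± SE). The groups overlapped in all 3. Snap29 and Stxbp2 had low signal, with 19% and 19.6% of probe sets dimmer, and 97% of probe sets were less variable within a group than that of Snap29. AF035822_at of Snap29 read 3.89, 3.91 and 3.16 with LSD and 4.32, 3.81 and 3.73 with saline. The further Cacna1a probe sets differed by -0.14, 0.02 and 0.08.

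Markers of neurons, in which Syt1 and Syt4 are expressed, had 10 of 16 probe sets above 0 (median 0.05), where 51.4% of all probe sets were above. Their mean level was 7.96 to 8.01 on the LSD arrays against 7.89 to 7.92 on the saline arrays. Excitatory cortical neuron markers had 3 of 8 above 0 and averaged 6.03 to 6.22 with LSD against 6.20 to 6.30 with saline, and inhibitory neuron markers had 2 of 10, at 6.71 to 6.73 against 6.76 to 6.82. Astrocyte markers averaged 7.53 to 7.54 with LSD and 7.45 to 7.50 with saline. Markers of the striatum had 2 of 17 above 0, at 5.66 to 5.76 with LSD and 5.84 to 5.88 with saline, and those of the choroid plexus 6 of 14, at 6.66 to 6.70 against 6.77 to 6.81. The mean levels of the oligodendrocyte, microglia and endothelium markers overlapped between the treatments. No marker probe set passed the threshold, beside 0.0686% of all. Without overlap, LSD was higher in 5 of 16 neuron and 5 of 20 astrocyte probe sets, beside 6.58% of all. The same held for 2 of 14 oligodendrocyte, 1 of 14 choroid plexus and 1 of 13 parvalbumin interneuron probe sets. LSD was lower without overlap in 6 of 17 striatum and 3 of 14 choroid plexus probe sets, beside 3.79% of all. That was so for 1 of 8 excitatory neuron and 1 of 20 astrocyte probe sets. These lists were chosen with earlier results of these data known, and nothing is read from the counts. The signal of the 3′ minus the 5′ probe set of beta-actin, a sign of RNA integrity, was 0.712, 0.709 and 0.640 log2 units with LSD and 0.835, 0.749 and 0.776 with saline, without overlap. The same measure of GAPDH was 0.581, 0.400 and 0.494 with LSD and 0.555, 0.540 and 0.474 with saline, with overlap. The part of these shifts in the Syt1 and Syt4 differences was not tested.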

How the data were processed

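Total RNA of the mPFC was hybridised to Affymetrix rat arrays, 3 per treatment. The deposited table holds log2 values that the authors made by RMA (affy package, version not given in the sources used here), which corrects background, quantile-normalizes the arrays and summarises each probe set. Values ran from 2.1132 to 12.9222. Arrays have no read depth, and their number limits the precision. Of 8799 probe sets, 59 controls were left out and 8740 tested. Symbols came from the platform annotation, where 7006 had 1 symbol, 308 several and 1426 none, and 6985 matched RefSeq by gene ID with 0 symbols changed.

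Treatments were compared by the lmFit and eBayes functions of limma (3.58.1, under R 4.3.3; no covariate, two-sided, Benjamini-Hochberg over all 8740, threshold 0.05), after a check on data simulated with 200 known changes. Named were all members, of the release list the 3 largest differences in each direction, and for Syt1 and Syt4 the 3 best correlated probe sets of other genes. Members and lists were chosen with earlier results of these data known. Alternatives were a further scaling (quantile, cyclic loess or equal medians), weighted arrays, replicate numbers as blocks, brighter probe sets alone, 1 probe set per gene, a variance trend with robust prior, omission of each array in turn, and ranks in an exact test.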

Additional observations from a re-analysis of the deposited data

How the results depend on the processing

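No synaptotagmin probe set passed an adjusted p of 0.05 in any of the 15 alternatives to the limma fit, and the unadjusted count lay between 2 and 5 of the members tested in the limma alternatives. The share of all probe sets with such a p is given only for the limma fit itself (3.92%), so nothing is read from these counts. The exact rank test cannot give a p below 0.1, so its count of 0 says nothing. Both Syt4 probe sets, Syt1 and Syt5 kept their sign in every alternative that gave a difference. Syt2, Syt3, Syt6, Syt7 and Syt11 each turned in at least 1. For Syt1 and Syt4, leaving out or weighting arrays could not turn the sign, because their groups do not overlap. The variance trend, the block, brighter probe sets alone and 1 probe set per gene leave a fitted difference as it was. In these alternatives the signs kept by Syt1 and Syt4 therefore add nothing to the lack of overlap. The further scalings (quantile, cyclic loess or equal medians) change the values themselves. With them the difference was 0.32 to 0.33 for Syt1, 0.29 to 0.31 for U14398_g_at and 0.19 to 0.20 for U14398_at. The median difference of the members, 0.07, was 0.20 for the 6 probe sets above the median level and 0.19 with array weights, and ran from 0.035 to 0.16 without 1 array (0.16 without Saline 1, 0.035 without LSD 3). That of the release partners, 0.03, ran from 0.031 to 0.051 without 1 array. With array weights 1 of the 73 release partner probe sets passed, that of Sv2b, where 42 of all 8740 probe sets did.

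Over all probe sets 6 passed (1 higher, 5 lower). The count was 16 above the median level (8 and 8), 20 with the intensity trend and robust prior (7 and 13), 42 with array weights (21 and 21), 1 with 1 probe set per gene, and 0 with the exact rank test. Without 1 array it ran from 0 to 3, with 3 without Saline 1 and 0 without any of the other 5. With the replicate number as a block it was 0. Whether the numbers pair the arrays cannot be told from 3 arrays per group. Deviations of same-numbered LSD and saline arrays correlated at -0.02, -0.23 and 0.17, and those of differently numbered ones at -0.15 to 0.20. No synaptotagmin or release partner had passed without the block, so it had no such call to remove. With it, 2 of the 9 synaptotagmin probe sets had an unadjusted limma p below 0.05, against 3 without. No share of all probe sets is given for the blocked fit, so nothing is read from this change. The cause of the changes in these counts was not tested.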
